A study of Mus musculus with 16 samples.

Results

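The expression of 10 genes of the myostatin and activin branch of the transforming growth factor β superfamily was followed in the fat of mouse pups: the ligand genes *Mstn*, *Gdf10*, *Bmp3*, *Inhba* and *Inhbb*, the genes of the binding proteins *Fst* and *Fstl3*, and the receptor genes *Acvr1c*, *Acvr2a* and *Acvr2b*. They are 10 of the 19505 genes with a symbol of their own on the array, found by symbol, and each had 1 transcript cluster, the probe group that measures a gene. *Mstn* and *Gdf10* had been picked because they moved in opposite directions with TUDCA on these same arrays. Their TUDCA differences are therefore given as a description with no test. All 10 genes and the gene lists used below were chosen with earlier results of these data known. The p-values and the counts set beside all clusters may therefore not be independent of that choice.

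RNA came from epididymal adipose tissue of male C57BL/6 pups (substrain NCrSlc by the study's methods), with 1 array per pup and 4 pups in each of 4 groups. UN-TUDCA and UN-Veh pups were born to dams held at 60% of the control energy intake in pregnancy and were nursed in litters cut to 4, while NN-TUDCA and NN-Veh pups came from freely fed dams and litters of 8. Restriction before birth and the small litter always occurred together and cannot be told apart. All pups received a high-fat diet from 9 wks of age. UN-TUDCA and NN-TUDCA pups were given tauroursodeoxycholic acid (TUDCA, a bile acid used to relieve endoplasmic reticulum stress) by mouth at 0.5 g/kg per day between 11 and 16.5 wks, and UN-Veh and NN-Veh pups were given distilled water. The labels do not give the litter of each pup, so that p-values measure the spread between pups, some of which may be littermates.

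Myostatin and the activins are secreted as precursors, cut by proteases, and bind type II receptors, which recruit type I receptors that phosphorylate SMAD proteins. Follistatin and follistatin-like 3 hold these ligands outside the cell and block receptor binding. Myostatin is best known for limiting skeletal muscle mass, and the type I receptor ALK7, encoded by *Acvr1c*, is known in mouse adipocytes as a brake on lipolysis.

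The sequences just upstream of the gene are shown for *Mstn* and *Gdf10*, the pair chosen for opposite changes, and for *Fstl3*, the binding protein that also differed with TUDCA in UN pups. Each is the 250 bases before the annotated start, from RefSeq on GRCm38.p6, + strand. Promoter entries were found for 9 of the 10 genes. Capitals mark matches, on either strand, to the TATA-box letters TATAAA, to the CCAAT box, to the GC-box letters GGGCGG, to the SMAD-type motif CAGAC or to the E-box CANNTG.
Mstn, chr1:53061390-53061639: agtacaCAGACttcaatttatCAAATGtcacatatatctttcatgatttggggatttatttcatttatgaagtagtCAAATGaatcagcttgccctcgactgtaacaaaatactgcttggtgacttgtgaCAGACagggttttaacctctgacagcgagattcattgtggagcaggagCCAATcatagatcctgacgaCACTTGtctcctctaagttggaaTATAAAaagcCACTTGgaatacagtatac
Gdf10, chr14:33923337-33923586: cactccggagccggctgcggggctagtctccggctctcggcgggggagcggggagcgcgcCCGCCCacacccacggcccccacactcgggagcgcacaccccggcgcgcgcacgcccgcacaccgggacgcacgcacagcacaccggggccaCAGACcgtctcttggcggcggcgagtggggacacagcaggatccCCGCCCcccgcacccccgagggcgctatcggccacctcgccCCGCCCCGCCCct
Fstl3, chr10:79777024-79777273: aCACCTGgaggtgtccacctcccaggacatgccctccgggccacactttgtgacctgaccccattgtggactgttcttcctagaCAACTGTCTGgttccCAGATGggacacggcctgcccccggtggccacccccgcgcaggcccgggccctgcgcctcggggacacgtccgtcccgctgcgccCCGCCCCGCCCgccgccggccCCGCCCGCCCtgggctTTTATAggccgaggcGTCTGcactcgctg
The *Mstn* window was AT-rich, with 38.4% G and C and 3 CpG dinucleotides, and held TATAAA at 29 to 24 bases before the start, 1 CCAAT, 2 CAGAC and 4 CANNTG matches. The *Gdf10* window had 78.8% G and C and 35 CpG, with 4 GGGCGG matches, a pair of which shared 1 base, and 1 CAGAC. The *Fstl3* window lay between them at 71.2% G and C with 22 CpG. It held TATAAA on the reverse strand, 4 GGGCGG, 2 CAGAC and 3 CANNTG matches, and there GGGCGG matches overlapped in pairs and a CANNTG match overlapped a CAGAC match. Among 32851 windows of the same length, the median was 52.4% G and C. TATAAA occurred in 12.4% of them, CCAAT in 33.9%, GGGCGG in 32.7%, CAGAC in 42.2% and CANNTG in 66.2%. A match is a run of letters and does not show that a factor binds there.

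Levels are log2 normalized intensities. Array medians lay between 7.0 and 7.16. The antigenomic controls, probes that match no mouse sequence and so measure background, had medians between 6.27 and 6.85. Adipocyte markers such as *Adipoq* averaged 16.2 to 16.7 on every array. On 4 arrays, 1 in each group (UN-TUDCA replicate 14, UN-Veh replicate 12, NN-TUDCA replicate 8 and NN-Veh replicate 2), the mean of 8 genes of motile cilia was over 1 above that of the median array. Values without these 4 arrays are given where a call on one of the 10 genes changes. The call used throughout is that of the study, an unadjusted p under 0.05 in limma together with a linear fold change of at least 1.3, and the p adjusted by Benjamini-Hochberg over 22206 transcript clusters is given beside it. In adipose tissue measured in bulk, fewer cells of a type and less RNA per cell cannot be told apart.

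**Figure D1:**
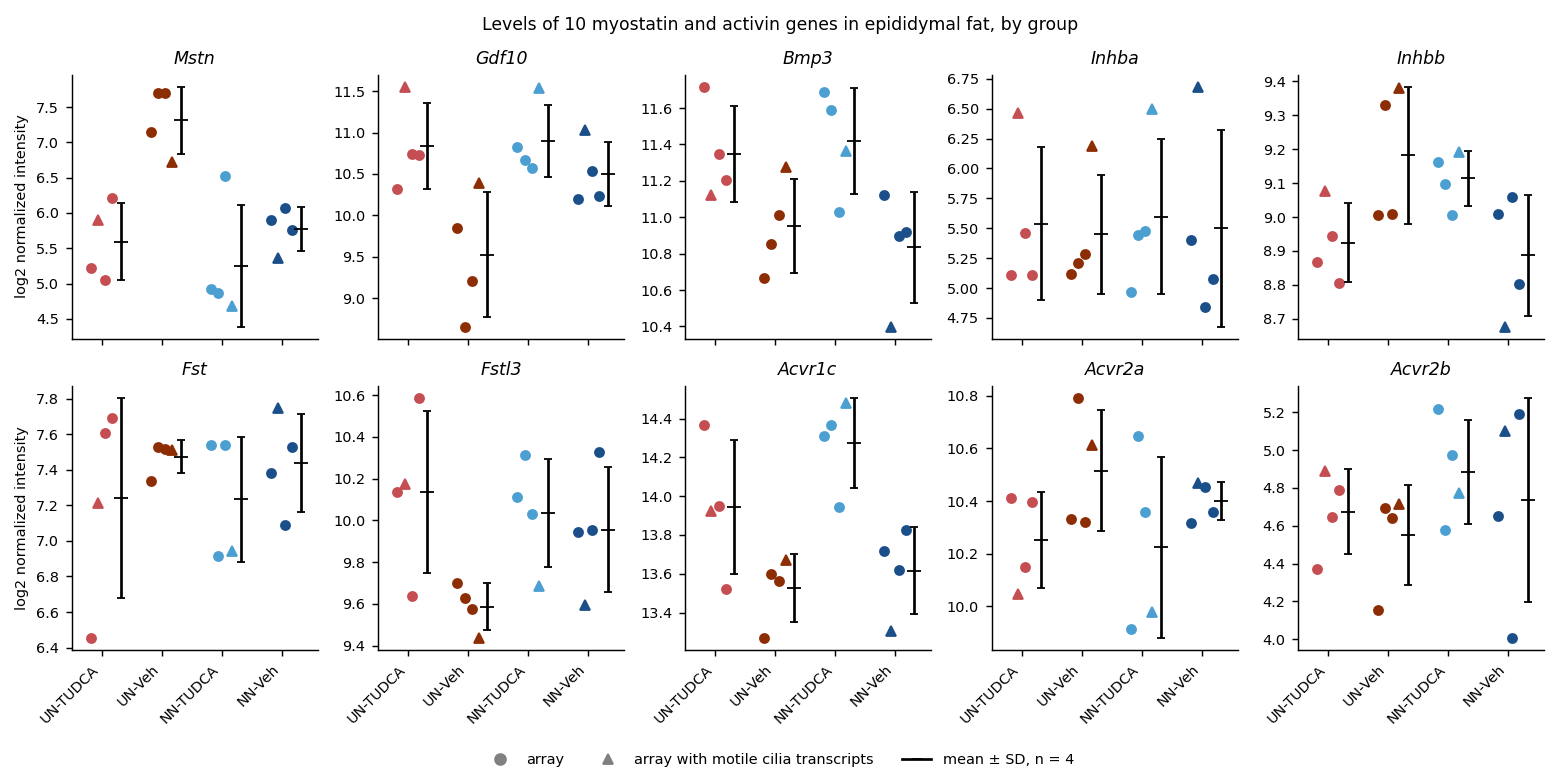
Log2 normalized intensity of the 10 genes on each of 16 arrays, by group, with the mean and SD (n = 4) and triangles for arrays with motile cilia transcripts. *Mstn* stood at 6.72 to 7.70 in UN-Veh pups, above all UN-TUDCA and NN-Veh arrays, and *Acvr1c* stood higher in NN-TUDCA than in NN-Veh pups on every array.

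*Acvr1c* exceeded all antigenomic controls by its mean level, and *Bmp3*, *Gdf10*, *Acvr2a*, *Fstl3* and *Inhbb* lay above the median control on each of the 16 arrays. *Fst*, the follistatin gene, lay above it on 15 arrays. *Mstn* lay above it on 4 arrays only, those of UN-Veh, and barely so on UN-Veh replicate 12 (6.72 against 6.71). Its mean level in UN-Veh pups exceeded 68.6% of the antigenomic controls. *Inhba*, which encodes the subunit of activin A, lay above the median control on 1 array, and *Acvr2b*, a type II receptor gene, on none. No fold changes between groups are therefore given for *Inhba* and *Acvr2b*. *Inhba* ranged between 4.84 and 6.68 and *Acvr2b* between 4.01 and 5.22 over all arrays.

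*Mstn* measured 5.22, 5.90, 5.05 and 6.22 in UN-TUDCA pups, against 7.15, 7.70, 7.70 and 6.72 in UN-Veh pups. It measured 4.93, 4.87, 6.53 and 4.68 in NN-TUDCA pups, against 5.90, 5.36, 6.08 and 5.76 in NN-Veh pups. The UN-Veh arrays thus overlapped with neither the UN-TUDCA nor the NN-Veh arrays, whereas NN-TUDCA and NN-Veh overlapped through NN-TUDCA replicate 7. Of all clusters, 3.89% did not overlap between UN-TUDCA and UN-Veh and 4.38% between UN-Veh and NN-Veh. The log2 difference of *Mstn* was −1.72 (SE 0.37) for UN-TUDCA minus UN-Veh and 1.54 (SE 0.37) for UN-Veh minus NN-Veh. NN-TUDCA and NN-Veh both lay below background, so that no difference is given between them. With arrays below background set to their median control, the level in UN-Veh pups was 1.60-fold that in UN-TUDCA pups and 1.59-fold that in NN-Veh pups. These values hold against the median control only, because the UN-Veh mean itself exceeded no more than 68.6% of the antigenomic controls.

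*Gdf10*, which encodes a ligand closely related to BMP3, measured 10.32, 11.56, 10.74 and 10.73 in UN-TUDCA pups, against 9.85, 8.66, 9.20 and 10.39 in UN-Veh pups. It measured 10.83, 10.67, 10.58 and 11.54 in NN-TUDCA pups, against 10.20, 11.03, 10.54 and 10.24 in NN-Veh pups. UN-Veh held the lowest values, and the single UN-Veh array over 10, replicate 12, was the one with motile cilia transcripts. The log2 difference of *Gdf10* was 1.31 (SE 0.34) for UN-TUDCA minus UN-Veh, 0.40 (SE 0.34) for NN-TUDCA minus NN-Veh and −0.98 (SE 0.34) for UN-Veh minus NN-Veh. Without the 4 arrays with motile cilia transcripts these values were 1.36, 0.37 and −1.09. The TUDCA difference of *Gdf10* in UN pups exceeded that in NN pups by 0.91, which did not pass the call defined above, and by 0.99 without those 4 arrays, which did, both given as a description.

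The mean nutrition effect, the mean of both UN groups minus the mean of both NN groups, weights TUDCA and vehicle arrays alike. *Mstn* and *Gdf10* passed the call and the other 8 genes did not, where 1.89% of all clusters passed. *Mstn* lay above background only in UN-Veh pups, so that its difference rests on the arrays that entered its choice, and no test of it is given. *Gdf10* had a difference of −0.52 (SE 0.24, n = 8 arrays per side, adjusted p = 0.776 from limma). It was −0.98 between UN-Veh and NN-Veh pups and −0.07 between UN-TUDCA and NN-TUDCA pups. The difference thus lay with the UN-Veh arrays, which also entered the choice of *Gdf10*, and is given as a description. *Gdf10* kept the call in 7 of the 16 fits that left out 1 array, with differences from −0.67 to −0.38. The call was lost without UN-TUDCA replicate 13, 15 or 16, UN-Veh replicate 10 or 11, NN-TUDCA replicate 5 or 8, or NN-Veh replicate 2 or 3. No cluster on the array had an adjusted p under 0.05 in this comparison, and 1418 had an unadjusted p under 0.05.

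With TUDCA in UN pups, 4 of the 10 genes passed the call, where 5.91% of all clusters did. The chosen genes *Mstn* and *Gdf10* were among them, and the others were *Fstl3* and *Acvr1c*, both higher. *Fstl3*, the follistatin-like inhibitor, measured 10.13, 10.17, 9.64 and 10.59 in UN-TUDCA pups, against 9.70, 9.63, 9.58 and 9.44 in UN-Veh pups. A single UN-TUDCA array, replicate 15 at 9.64, fell among the UN-Veh values. The means were 10.13 ± 0.39 in UN-TUDCA and 9.59 ± 0.11 in UN-Veh pups (SD, n = 4), a log2 difference of 0.55 (SE 0.19), 1.46-fold, with an adjusted p of 0.408 from limma. Without UN-TUDCA replicate 16 the difference was 0.40 and the call was lost. In NN pups *Fstl3* measured 10.11, 10.31, 10.03 and 9.69 with TUDCA, against 9.95, 9.59, 9.95 and 10.33 with vehicle, and the difference of 0.08 (SE 0.19) did not pass. The test of the difference between both TUDCA effects on *Fstl3*, 0.47 (SE 0.27, adjusted p = 1.0 from limma), did not pass either. It passed without UN-TUDCA replicate 15 (0.63) or NN-Veh replicate 2 (0.59).

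*Acvr1c*, the ALK7 receptor of adipocytes, measured 14.37, 13.92, 13.95 and 13.52 in UN-TUDCA pups, against 13.27, 13.60, 13.57 and 13.67 in UN-Veh pups. All but UN-TUDCA replicate 16 lay above the UN-Veh arrays. The log2 difference was 0.42 (SE 0.17), 1.33-fold, with an adjusted p of 0.551 from limma. This call was lost without UN-TUDCA replicate 13 (0.27), UN-TUDCA replicate 15 (0.41) or UN-Veh replicate 9 (0.33).

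With TUDCA in NN pups, *Acvr1c* and *Bmp3* passed the call, both higher, and the other 8 genes did not, where 3.29% of all clusters passed. No cluster had an adjusted p under 0.05 by limma in this comparison, and 1087 had an unadjusted p under 0.05. *Acvr1c* measured 14.31, 14.37, 13.94 and 14.48 in NN-TUDCA pups, against 13.72, 13.31, 13.62 and 13.82 in NN-Veh pups. The groups did not overlap, as was the case for 3.6% of all clusters. The log2 difference of *Acvr1c* was 0.66 (SE 0.17), 1.58-fold, with an adjusted p of 0.682 from limma. *Bmp3*, the gene of an atypical bone morphogenetic protein known to oppose other members of its family in bone, measured 11.69, 11.59, 11.03 and 11.36 in NN-TUDCA pups, against 11.12, 10.40, 10.89 and 10.92 in NN-Veh pups. The groups overlapped through NN-TUDCA replicate 7. The difference was 0.58 (SE 0.19), 1.5-fold, with an adjusted p of 0.782. *Acvr1c* and *Bmp3* kept their calls in each of the 16 fits that left out 1 array.

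In UN pups *Bmp3* measured 11.72, 11.12, 11.35 and 11.21 with TUDCA, against 10.67, 10.85, 11.01 and 11.27 with vehicle. The difference of 0.40 (SE 0.19, adjusted p = 0.631 from limma) did not pass the call. It passed without the 4 arrays with motile cilia transcripts, at 0.58 (adjusted p = 0.325), and in 4 of the 16 fits that left out 1 array, namely UN-TUDCA replicate 14 (0.47), UN-Veh replicate 12 (0.50), NN-TUDCA replicate 7 or NN-Veh replicate 2 (0.40 each). The difference between both TUDCA effects was −0.19 (SE 0.27) for *Bmp3* and −0.24 (SE 0.25) for *Acvr1c*, each under its SE, and neither passed.

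**Figure D2:**
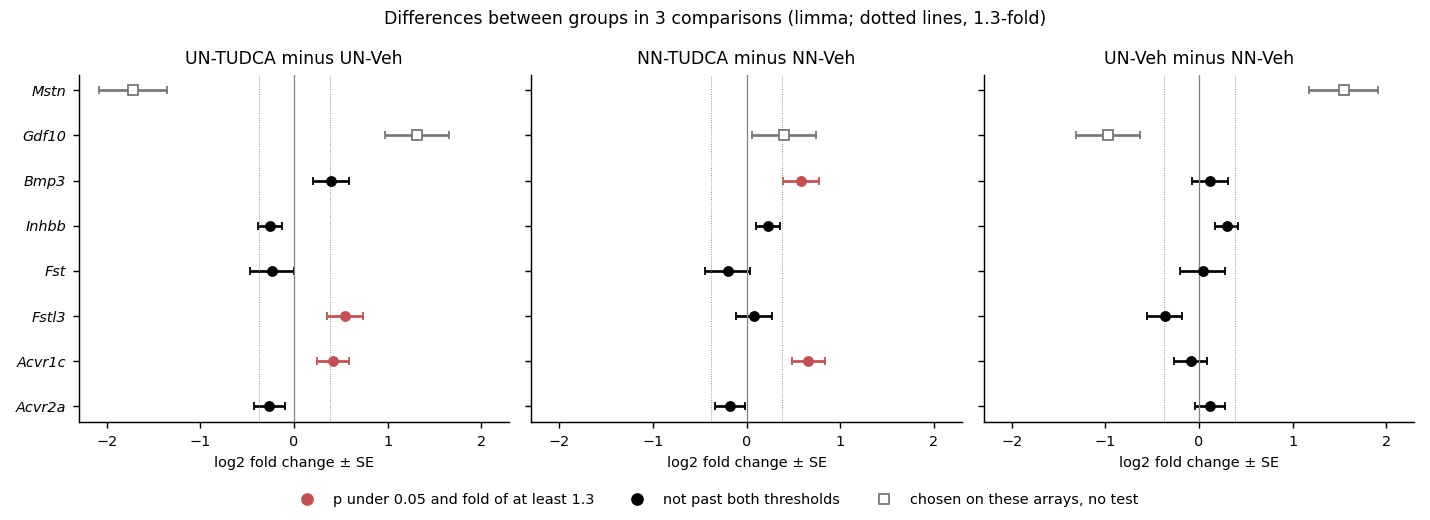
Log2 fold change and SE from limma for 8 genes in UN-TUDCA minus UN-Veh, NN-TUDCA minus NN-Veh and UN-Veh minus NN-Veh (4 arrays per group), with red points for genes past the call, open squares for *Mstn* and *Gdf10*, which were chosen on these arrays (*Mstn* is left out of the middle panel, where both groups lay below background), and dotted lines at 1.3-fold. *Acvr1c* lay to the right of the line in both TUDCA comparisons, at 0.42 and 0.66, and near 0 in UN-Veh minus NN-Veh, at −0.09.

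The mean TUDCA effect, the average of both TUDCA differences, was added after the data were seen. It passed the call for 4 of the 10 genes, where 3.96% of all clusters passed, and *Mstn* and *Gdf10* were again among them by choice. *Acvr1c* was higher by 0.54 (SE 0.12, n = 8 arrays per side, adjusted p = 0.0868 from limma) and *Bmp3* by 0.49 (SE 0.13, adjusted p = 0.153). Over the 16 fits that left out 1 array, the difference ranged between 0.47 and 0.61 for *Acvr1c*, with adjusted p between 0.0366 and 0.184, and between 0.42 and 0.55 for *Bmp3*. *Fstl3* had a mean effect of 0.31 (SE 0.14, adjusted p = 0.449) and did not reach 1.3-fold, except without UN-TUDCA replicate 15 (0.40).

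For *Inhbb*, whose product forms activin B, the TUDCA differences in UN and NN pups had opposite signs. *Inhbb* measured 8.87, 9.08, 8.95 and 8.81 in UN-TUDCA pups, against 9.01, 9.33, 9.01 and 9.38 in UN-Veh pups. It measured 9.16, 9.10, 9.01 and 9.19 in NN-TUDCA pups, against 9.01, 8.68, 9.06 and 8.80 in NN-Veh pups. UN-Veh and NN-TUDCA held the higher values, and the groups overlapped in each comparison. The TUDCA difference was −0.26 (SE 0.13) in UN pups and 0.23 (SE 0.13) in NN pups, and neither passed the call. The test of their difference, −0.49 (SE 0.18, adjusted p = 1.0 from limma), passed it. Of all clusters, 701 had an unadjusted p under 0.05 by limma in this test and none had an adjusted p under 0.05. Of the 10 genes 2 passed here, *Inhbb* and the chosen *Mstn*, where 3% of all clusters did. For *Mstn* this is no test, because its TUDCA difference entered its choice. It also holds the difference between NN-TUDCA and NN-Veh, both below background, so that no value is given. The *Mstn* call was lost without UN-TUDCA replicate 13 or 15, UN-Veh replicate 10 or 11, NN-TUDCA replicate 7 or NN-Veh replicate 2. *Inhbb* kept its call in each of the 16 fits that left out 1 array and lost it without the 4 arrays with motile cilia transcripts, at −0.37.

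Between UN-Veh and NN-Veh pups, 2 of the 10 genes passed the call, where 4.45% of all clusters did, and these were *Mstn* and *Gdf10*, whose UN-Veh arrays also entered their choice. Without UN-Veh replicate 10 *Gdf10* lost the call, at −0.69. *Inhbb* was 0.29 (SE 0.13, adjusted p = 0.775 from limma) higher in UN-Veh, 1.23-fold, and *Fstl3* had a difference of −0.37 (SE 0.19, adjusted p = 0.816), and neither passed. *Fstl3* passed without NN-Veh replicate 2, at −0.49. Between UN-TUDCA and NN-TUDCA pups none of the 10 genes passed, where 1.83% of all clusters did. No cluster had an adjusted p under 0.05 by limma there, and 679 had an unadjusted p under 0.05. *Mstn* lay below background in both groups, and no difference is given. The difference was −0.07 (SE 0.34) for *Gdf10* and −0.33 (SE 0.17) for *Acvr1c*. Without NN-TUDCA replicate 7 *Acvr1c* passed at −0.44, and without UN-TUDCA replicate 13 *Acvr1c* passed at −0.48.

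*Fst* and *Acvr2a* passed the call in none of these comparisons. *Fst* measured 6.46 to 7.69 in UN-TUDCA pups, 7.34 to 7.53 in UN-Veh pups, 6.91 to 7.54 in NN-TUDCA pups and 7.09 to 7.75 in NN-Veh pups. *Acvr2a*, a type II receptor gene, measured 10.05 to 10.41 in UN-TUDCA pups, 10.32 to 10.79 in UN-Veh pups, 9.91 to 10.65 in NN-TUDCA pups and 10.32 to 10.47 in NN-Veh pups. The TUDCA difference of *Acvr2a* was −0.26 (SE 0.16) in UN pups and −0.18 (SE 0.16) in NN pups. *Inhba* averaged 5.54 ± 0.64 in UN-TUDCA, 5.45 ± 0.50 in UN-Veh, 5.60 ± 0.65 in NN-TUDCA and 5.50 ± 0.82 in NN-Veh pups (SD, n = 4). *Acvr2b* averaged 4.67 ± 0.23 in UN-TUDCA, 4.55 ± 0.27 in UN-Veh, 4.88 ± 0.27 in NN-TUDCA and 4.74 ± 0.54 in NN-Veh pups.

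Within each group, the array with motile cilia transcripts was the highest of its 4 for *Inhba* and for *Gdf10*. *Inhba* there exceeded the mean of the other 3 arrays by 1.24 in UN-TUDCA, 0.98 in UN-Veh, 1.20 in NN-TUDCA and 1.58 in NN-Veh. *Gdf10* exceeded it by 0.96, 1.16, 0.85 and 0.71 in the same order of groups. For *Inhba* only the NN-Veh array lay above its median control, so that its differences lie largely within background. *Mstn* was below the mean of the other arrays on the arrays with motile cilia transcripts in UN-Veh, NN-TUDCA and NN-Veh and above it in UN-TUDCA. The arrays with motile cilia transcripts also had the highest array median of their groups. It was 7.11 in UN-TUDCA, 7.07 in UN-Veh, 7.11 in NN-TUDCA and 7.16 in NN-Veh. The share of all clusters that were highest on these arrays was not counted. The part of the cilia-bearing tissue in the levels of the genes was not tested.

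**Figure D3:**
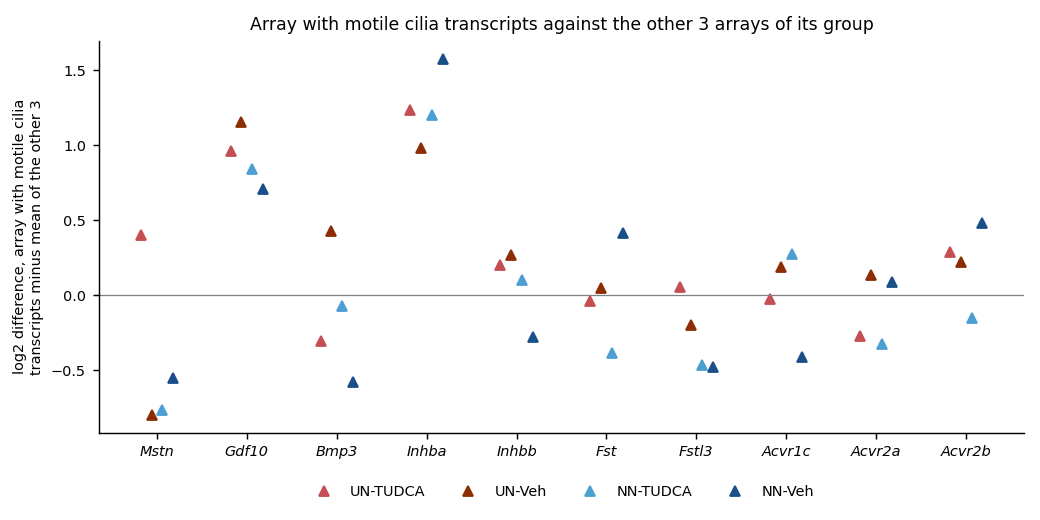
Log2 difference between the array with motile cilia transcripts and the mean of the other 3 arrays of its group, for each gene, with 1 triangle per group. *Inhba* (0.98 to 1.58) and *Gdf10* (0.71 to 1.16) lay well above 0 in all 4 groups, and the other genes lay on both sides of 0. *Inhba* lay above background on NN-Veh replicate 2 only and *Acvr2b* on no array.

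Across the 16 arrays, *Mstn* and *Gdf10* had a Pearson r of −0.78, which fell to −0.41 once group means were taken out. *Acvr1c* and *Bmp3* had an r of 0.85, and 0.78 with group means taken out. Those are descriptions over arrays that share the group differences above. All genes with 1 symbol were ranked by their r to each of the 10 genes. *Mstn* was followed most closely by *Pde7a*, a phosphodiesterase gene (0.93), the acute-phase gene *Saa3* (0.93), the protease inhibitor gene *Cstb* (0.90), the superoxide dismutase gene *Sod2* (0.90) and *Chil3* (0.90), a gene of alternatively activated mouse macrophages. *Saa3* averaged 11.4 in UN-TUDCA, 14.7 in UN-Veh, 10.8 in NN-TUDCA and 12.3 in NN-Veh pups. *Gdf10* was followed by the proenkephalin gene *Penk* (0.94), *Emp2* (0.87), *Zfp512b* (0.86), *Fam161a* (0.86) and *Ccbe1* (0.86). *Pde3b*, the phosphodiesterase gene through which insulin restrains lipolysis, ranked first for both *Acvr1c* (0.91) and *Bmp3* (0.91). For *Inhba* the closest were *Hhip*, *Ank3* and *Dsp* (0.97 each), with r of 0.60 to 0.69 over the 12 arrays without motile cilia transcripts. For *Fstl3* they were *Epb41l1* (0.86), *Ddx27* (0.86) and *Csnk1e* (0.82), and for *Inhbb* they were *Gldc* (0.83), *Ifih1* (0.78) and *Ehhadh* (0.78). *Fst* was followed by *Kpna1* (0.83), *Acvr2a* by *Dcaf15* (0.86) and *Acvr2b* by *Prpf40b* (0.83). *Mstn*, *Inhba* and *Acvr2b* were ranked mostly or wholly on arrays where they lay below the median control. The genes named had the highest r of 19504 over 16 arrays, and the r that chance alone would give was not tested.

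**Figure D4:**
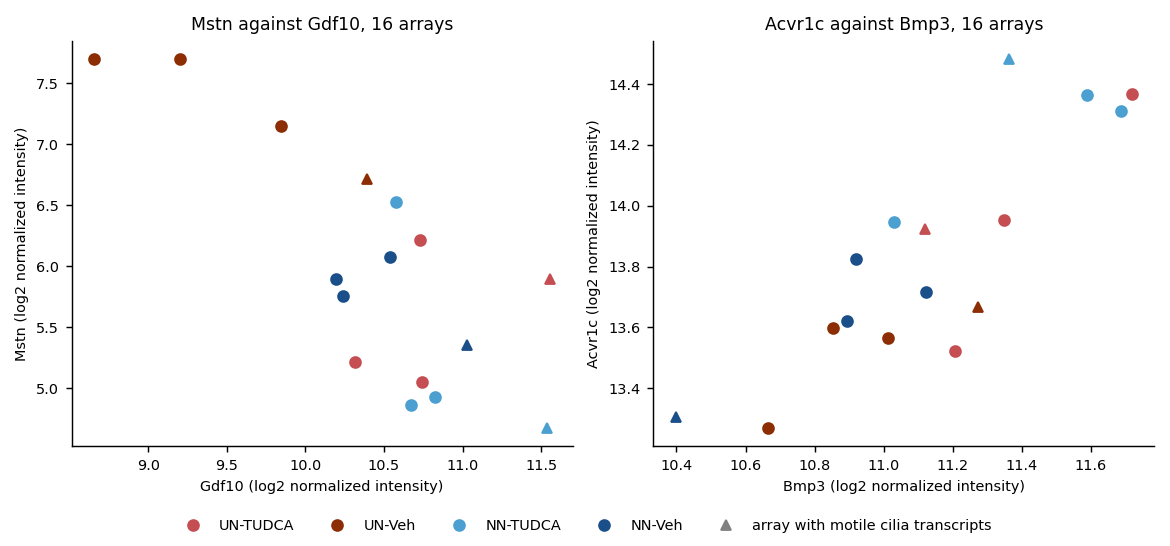
Log2 normalized intensity of *Mstn* against *Gdf10* (left) and of *Acvr1c* against *Bmp3* (right) on 16 arrays, coloured by group, with triangles for arrays with motile cilia transcripts. UN-Veh arrays lie at the upper left for *Mstn* and *Gdf10* (r −0.78), and *Acvr1c* and *Bmp3* are high on the same arrays (r 0.85).

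Of 71 other genes of the superfamily and its pathway (ligands, receptors, binding proteins, processing enzymes, SMAD genes and target genes), 68 were measured. With TUDCA in UN pups 9 were higher and 2 lower, against 607 higher and 706 lower among all 22206 clusters (5.91%). The higher ones were the ligand genes *Bmp4* (log2 difference 0.82), *Tgfb2* (0.53) and *Tgfb3* (0.48), *Ltbp4* (0.81), which encodes a matrix protein that holds latent TGF-β, the BMP antagonist gene *Chrd* (0.42), the convertase gene *Pcsk6* (0.83), *Ccn2* (1.10), a known target of TGF-β, and *Grem1* and *Ltbp2*, whose means lay below the median control in every group. The lower ones were the BMP receptor gene *Bmpr1a* (−0.46) and the BMP target *Id1* (−0.78). *Ltbp4* averaged 10.9 in UN-TUDCA and 10.1 in UN-Veh pups, with the smallest adjusted p of the 11, 0.120 from limma. The median of the 68 differences was 0.00, and that of all clusters 0.01.

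With TUDCA in NN pups, 2 of the 68 were higher, *Bmp6* (0.44) and the pseudoreceptor gene *Bambi* (0.42), and 3 were lower. The lower ones were *Acvr1b* (−0.63), the type I receptor gene ALK4, and the TGF-β target genes *Pmepa1* (−0.99) and *Tgfbi* (−0.42). Adjusted p from limma was 0.682 to 0.952 for these 5, and 3.29% of all clusters passed. Between UN-Veh and NN-Veh pups, *Bambi* was higher (0.48) and *Ltbp4* (−0.52) and *Chrd* (−0.44) were lower, where 4.45% of all clusters passed. Between UN-TUDCA and NN-TUDCA pups 3 of the 68 were higher, *Pmepa1* (0.74) and, with means below the control medians, *Grem1* and *Ltbp2*. None was lower, where 1.83% of all clusters passed. In the difference between both TUDCA effects 4 were higher, among them *Ccn2* (1.10) and *Ltbp4* (0.70), and 2 lower, among them *Bambi* (−0.44), where 3% of all clusters passed. *Grem1* among the higher and *Cfc1* among the lower had means below the control medians. In the mean nutrition effect *Pmepa1* was higher (0.47) and *Pcsk6* lower (−0.51), against 1.89% of all clusters. In the mean TUDCA effect, where 3.96% of all clusters passed, 6 were higher, with *Tgfb3* (0.42, adjusted p = 0.0906 from limma) at the smallest p, and 3 were lower, *Pmepa1* (−0.73), *Acvr1b* (−0.51) and *Bmp1* (−0.42), whose product can release myostatin from its propeptide. None of the 13 SMAD and SMAD regulator genes passed the call in any comparison. Of 6 lipolysis genes, *Pnpla2*, which encodes adipose triglyceride lipase, was higher with TUDCA in NN pups (0.47, adjusted p = 0.682) and in the mean TUDCA effect (0.41, adjusted p = 0.0868), and the other 5 did not pass.

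Markers of other cell types moved beside some of these differences. The shares of all clusters past the call were 5.91% in UN-TUDCA minus UN-Veh, 3.29% in NN-TUDCA minus NN-Veh and 4.45% in UN-Veh minus NN-Veh. Of 12 skeletal muscle genes, in which *Mstn* is best known, *Pvalb* was higher in UN-Veh than in NN-Veh pups (1.38) and lower in UN-TUDCA than in UN-Veh pups (−1.43), *Myl1* was higher in UN-TUDCA than in UN-Veh pups (0.75), and no other gene passed in these comparisons. Their mean level was 6.59 to 7.11 in UN-TUDCA, 6.63 to 7.01 in UN-Veh, 6.67 to 6.92 in NN-TUDCA and 6.60 to 6.86 in NN-Veh pups. *Myh4* and *Myh1*, myosins of fast fibres, lay below the lowest median of the antigenomic controls on every array. So did *Mylpf*, *Tnnt3*, *Tnnc2* and *Atp2a1*. *Myl1* (group means 13.2 to 13.9), *Acta1* (8.97 to 9.89), *Actn3* (7.69 to 7.87) and *Ckm* (7.38 to 7.51) lay above every control median. The part of muscle in the level of *Mstn* was not tested. Of 11 mesothelial genes, 7 were higher in UN-TUDCA than in UN-Veh pups and 3 lower in UN-Veh than in NN-Veh pups. Their mean level was 7.71 to 8.98 in UN-TUDCA, 6.32 to 7.85 in UN-Veh, 7.53 to 8.62 in NN-TUDCA and 7.39 to 8.59 in NN-Veh pups. *Upk3b* (2.10), *Gpm6a* (1.97) and *Upk1b* (1.77) differed most among the 7, while *Wt1* lay below the lowest control median on every array. Of 9 macrophage genes, 3 were lower in UN-TUDCA than in UN-Veh pups, 2 lower in NN-TUDCA than in NN-Veh pups (*C1qa*, −0.50, and *Fcgr1*, −0.59) and 2 higher in UN-Veh than in NN-Veh pups, with a mean level of 11.6 to 12.1 in UN-TUDCA, 12.1 to 12.3 in UN-Veh, 11.2 to 12.2 in NN-TUDCA and 11.6 to 12.3 in NN-Veh pups. Of 4 testis genes, 3 were lower in UN-Veh than in NN-Veh pups, and none passed with TUDCA in UN or NN pups. The lower ones were *Prm1* (−1.84) and, with means below the control medians in both groups, *Ldhc* and *Tnp1*. *Prm1* averaged 7.54 in NN-Veh pups and 5.70 in UN-Veh pups, below every control median, so that its difference carries no linear scale. The mean level of the 4 testis genes was 5.24 to 6.85 in UN-TUDCA, 4.97 to 5.15 in UN-Veh and 5.08 to 8.17 in NN-TUDCA pups. In NN-Veh pups it was 5.22 to 9.00, with a median array of 6.12. Of 10 adipocyte genes, the glucose transporter gene *Slc2a4* was higher with TUDCA in UN (0.90) and NN (0.62) pups, and *Retn*, the resistin gene, was higher in UN-TUDCA than in UN-Veh pups (0.66) and lower in UN-Veh than in NN-Veh pups (−0.56). The part of adipocytes, testis, mesothelial cells and macrophages in the levels of *Mstn*, *Gdf10*, *Bmp3*, *Fstl3* and *Acvr1c* was not tested.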

How the data were processed

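Total RNA of epididymal adipose tissue from 16 pups, 4 per group, was hybridized by the authors to Clariom S mouse arrays after labelling with the WT PLUS kit. The scans were processed in Expression Console and Transcriptome Analysis Console, whose versions and normalization are not given in the sources used here. The deposited intensities are normalized and linear, with 1 value per transcript cluster and array, and log2 was taken here because the design had been written for log2 values. Of 22520 lines, 314 controls were left out and 22206 clusters tested, 19572 of them with 1 gene symbol, 2634 with none. Precision is limited by 4 arrays per group. Groups follow the sample titles. The source name of the NN-TUDCA samples reads NN-RG-TU, while their title and maternal diet read NN.

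Group means were fitted with limma 3.58.1 (R 4.3.3, eBayes, Benjamini-Hochberg) over all 16 arrays and the step was tested on simulated data. Calls need an unadjusted p under 0.05 and 1.3-fold. The 10 genes and all lists were chosen with earlier results of these data known. Named besides these are other superfamily and pathway genes past the call, up to 4 per list and comparison, and the 5 genes for *Mstn* and *Gdf10*, 3 for the others, with the highest Pearson r. Alternatives were median centring, quantile normalization, a filter on dim clusters, which kept 12417, fits of 2 groups alone, an intensity trend with robust prior, the methods' t-test, 1 cluster per gene, the 4 arrays with motile cilia transcripts left out, and each array left out in turn. Plotting used matplotlib 3.10.9 (Python 3.11.15).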

Additional observations from a re-analysis of the deposited data

Results flagged for a closer look

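Each of the 10 genes was checked in each group for an array set apart from the other 3 (Dixon's test at 95%), and 4 of 40 sets were picked out, where chance alone gives about 1 in 20. *Mstn* was 6.53 in NN-TUDCA replicate 7, against 4.68 to 4.93 in the other NN-TUDCA pups. *Inhba* was 6.18 in UN-Veh replicate 12, one of the arrays with motile cilia transcripts, against 5.12 to 5.29 in the other UN-Veh pups, all below background. In UN-Veh replicate 9, *Fst* was 7.34, against 7.51 to 7.53, and *Acvr2b* was 4.16, against 4.64 to 4.72, below background throughout.

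The difference between the TUDCA effects on *Inhbb* in UN and NN pups was −0.49 (SE 0.18, unadjusted call from limma, adjusted p = 1.0). This call was lost without the 4 arrays with motile cilia transcripts.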

How the results depend on the processing

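No called difference of any of the 10 genes changed sign under the alternatives tried. Of 112 called values refitted under the alternatives other than leaving out 1 array, 107 kept the call, and of 256 with 1 array left out, 236 did. Both counts rest in large part on *Mstn* and *Gdf10*, which were chosen on these arrays, and do not test those genes. The count of genes past the call was 2 for UN-Veh minus NN-Veh, 1 with the methods' t-test, where *Gdf10* was lost, and 1 to 3 with 1 array left out. It was 4 for UN-TUDCA minus UN-Veh, and 3 to 5 over all alternatives. It was 2 for NN-TUDCA minus NN-Veh, and 2 to 3 with 1 array left out. It was 0 for UN-TUDCA minus NN-TUDCA, and 0 to 2 with 1 array left out. The highest counts of both, without NN-TUDCA replicate 7, include *Mstn*, which lay below background in each of these groups. It was 2 for the difference between both TUDCA effects, and 1 to 3 with 1 array left out, with 1 left without NN-TUDCA replicate 7 or UN-Veh replicate 10 or 11. It was 2 for the mean nutrition effect, 1 with quantile normalization and 1 with an intensity trend and robust prior, with *Gdf10* lost in both, and 1 to 2 with 1 array left out. The cause was not tested. *Acvr1c* in UN-TUDCA minus UN-Veh also lost its call by the methods' t-test, and *Bmp3* there gained one with the intensity trend. Filtering dim clusters left *Inhba* and *Acvr2b* untested.

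No paired analysis was possible because the replicate numbers, 1 to 16, are not shared between groups. *Mstn* lay below background in 3 groups, so its differences there carry no linear scale. Batches and scan dates are not given in the sources used here.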
